A study of Homo sapiens with 9 samples.

Results

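The genes described here are 35 genes of glycolysis and of the response to low oxygen, chosen by symbol from a list that holds the enzymes from hexokinase to lactate dehydrogenase, genes of glucose and lactate transport and its control, and the hypoxia-inducible factor HIF1A with genes known as its targets. All 35 were among the 58735 genes of the count table. After a filter on low counts 34 of them were tested among 18195 genes, and CA9 was not. PGK1, which encodes phosphoglycerate kinase, is set apart from the other 34 throughout. Values are CPM (counts scaled by library size and composition to a common total), as mean ± SD over 3 libraries, and a gene is said to have risen or fallen where its adjusted p in edgeR was under 0.05.

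The series measured messenger RNA in p65 knockout cells of the line HEK293A, which was derived from the human embryonic kidney line HEK293 and grows as a flat sheet. p65, encoded by RELA, is the main activating subunit of the transcription factor NF-kB. The knockout cells carried a transfected plasmid, which was empty vector, p65 WT or p65 2CS (an abbreviation left unexplained in the labels), and 24 h after transfection all 3 groups were given TNFα at 20 ng/mL for 2 h. Each group had 3 libraries, of which the vector group holds numbers 1 to 3, the p65 WT group 4 to 6 and the p65 2CS group 7 to 9. No group without TNFα and no culture at low oxygen is among the labels. The labels name no clone of the knockout and do not say whether the libraries of a group were separate cultures, so the p-values may measure technical spread alone.

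Glycolysis splits glucose into pyruvate in the cytosol and yields ATP at the steps of phosphoglycerate kinase and pyruvate kinase, while lactate dehydrogenase turns pyruvate into lactate. When oxygen is short, prolyl hydroxylases of the EGLN family no longer mark the alpha subunit of HIF for destruction, and HIF then raises transcription of most glycolytic enzymes, the glucose transporter SLC2A1, VEGFA, BNIP3 and CA9. NF-kB is known to act on the same programme in other settings, since HIF1A is one of its targets. HEK293 cells, like most cultured lines, rely heavily on glycolysis even with oxygen present.

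HIF binds DNA at a core of ACGTG or GCGTG, and the shared features of the members' start sites are shown first because the list joins enzymes with HIF targets. RefSeq promoter entries (GRCh38.p14) were found for 31 of the 35 genes. In the 250 bases before the start, read on both strands, ACGTG stood in at least 1 entry of 19 of these 31 genes and GCGTG in that of 16. At least 1 of the cores stood in 26 of 31, or 83.9%, against 47.4% of the 27305 gene symbols kept. Genes can have several entries, and by entry these were 35 of the 59 of the members, against 43.2% of all 35116 kept. A gene with more entries has more chances of a match. The list was chosen to hold known HIF targets, so a higher share can follow from that choice and is given as a description. The palindrome CACGTG counts as 2 matches, 1 on each strand. The stretches below lie before the start and outside annotated exons, are written 5′ to 3′ on the gene's strand, and carry both cores in capitals, in either orientation.
PGK1, chrX:78103998-78104173, plus strand: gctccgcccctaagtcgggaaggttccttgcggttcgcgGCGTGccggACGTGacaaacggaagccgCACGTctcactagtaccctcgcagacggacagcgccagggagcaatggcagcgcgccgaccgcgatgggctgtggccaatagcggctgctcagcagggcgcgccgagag
HK2, chr2:74834920-74835169, plus strand: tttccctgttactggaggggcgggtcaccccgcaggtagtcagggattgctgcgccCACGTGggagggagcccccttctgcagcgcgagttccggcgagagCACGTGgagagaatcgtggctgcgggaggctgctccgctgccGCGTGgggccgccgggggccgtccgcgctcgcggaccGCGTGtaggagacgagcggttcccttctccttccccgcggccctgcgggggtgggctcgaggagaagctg
LDHA, chr11:18394313-18394387, plus strand: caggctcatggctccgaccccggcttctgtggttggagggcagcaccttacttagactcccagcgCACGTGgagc
BNIP3, chr10:131982014-131982173, minus strand: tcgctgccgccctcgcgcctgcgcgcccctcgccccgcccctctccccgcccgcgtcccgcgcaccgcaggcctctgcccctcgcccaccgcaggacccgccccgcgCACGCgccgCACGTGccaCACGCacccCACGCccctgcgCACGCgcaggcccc
These 4 genes were chosen after their values were seen because each followed a different course over the groups. PGK1 held 3 cores, HK2 and BNIP3 held 6 each, and LDHA held 2 in the stretch shown. As given below, PGK1 was higher with both p65 forms, HK2 lower with both, LDHA lower with p65 2CS by a small amount, and BNIP3 higher with p65 WT. The NF-kB consensus, searched by its full degenerate form, stood in the same window of 7 of 31 genes (ENO1, HK1, HK2, PFKFB3, PFKM, SLC16A3 and SLC2A1), against 11.8% of all gene symbols kept, and not in that of PGK1. These are matches of letters and not binding sites.

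RELA was low with vector, at 65.9 to 69.0 CPM, and stood at 8037 to 9922 CPM in p65 WT cells and 24036 to 26771 in p65 2CS cells. RELA reads remained in the knockout libraries, and a count of RNA does not show whether protein was made. The 2 p65 forms differed in RELA RNA, so their effects on any gene below cannot be told apart from that difference in level. Total counts per library were 15989601 to 25068515, the mitochondrially encoded share was 4.34% to 5.05%, and replicate libraries differed by more than sampling noise (chi-square per degree of freedom 1.91 to 2.64). All 10 markers of HEK293 cells were detected, with a summed level of 2165 to 2181 CPM with vector, 2032 to 2093 in p65 WT cells and 1913 to 1976 in p65 2CS cells, although PAX2, NEFM and INA were each at under 2 CPM. The leukocyte genes PTPRC and CD3E were at or near 0. Of 4 endothelial markers the summed level was 1.16 to 1.66 CPM with vector, 9.25 to 15.3 in p65 WT cells and 2.74 to 3.54 in p65 2CS cells, and its part in the results was not tested. Among these markers CDH5 averaged 0.0979, 10.5 and 2.38 CPM in the 3 groups and KDR 0.933, 0.832 and 0.650, while PECAM1 averaged 0.123 CPM or less in each. In bulk RNA a change in each cell and a change in the share of cells that took up a plasmid cannot be told apart.

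PGK1 rose with p65 WT and rose further with p65 2CS. This enzyme transfers a phosphate to ADP in the first ATP-yielding step of glycolysis, and its gene (ENSG00000102144) lies on chromosome X at chrX:77910739-78129296 on the plus strand. The counts were 10126, 11153 and 9621 in the vector libraries, 13195, 12391 and 14624 in the p65 WT libraries, and 30004, 45171 and 31645 in the p65 2CS libraries. As CPM these were 540, 546 and 532 with vector, 832, 785 and 904 in p65 WT cells and 1746, 1795 and 1667 in p65 2CS cells. The 3 groups did not overlap, and the lowest p65 2CS library stood far above the highest p65 WT library.

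The mean of PGK1 was 539 ± 7.09 CPM with vector, 841 ± 59.9 in p65 WT cells and 1736 ± 64.5 in p65 2CS cells. The log2 fold was 0.64 ± 0.03 (SE) for p65 WT against vector (adjusted p = 2.73e-20), a 1.56-fold rise. It was 1.69 ± 0.03 for p65 2CS against vector (adjusted p = 1.42e-34), a 3.22-fold rise, and 1.05 ± 0.03 for p65 2CS against p65 WT (adjusted p = 9.46e-28). Each of these differences was larger than the spread between replicates, and with each library left out in turn they stayed at 0.58 to 0.69, 1.66 to 1.71 and 1.00 to 1.10.

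Among all 18195 genes tested, PGK1 moved from rank 180 by CPM with vector to rank 90 with p65 WT and rank 26 with p65 2CS. Many low genes had larger folds, and few abundant ones did. For p65 2CS against vector it ranked 294 of all genes by fold, and 3 of the 2418 genes with at least 100 CPM in either group, behind RELA and SLC12A7, a potassium-chloride cotransporter. For p65 WT against vector it ranked 72 of 2496 such genes, and for p65 2CS against p65 WT 2 of 2470.

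PGK1 was higher in the group with more RELA RNA. The PGK1 CPM above the vector mean averaged 301 with p65 WT and 1197 with p65 2CS, while the RELA CPM above its own vector mean averaged 8935 and 25450. As a share of the RELA excess, the PGK1 excess was 3.26%, 3.08% and 3.70% in the p65 WT libraries and 4.70%, 4.70% and 4.71% in the p65 2CS libraries. The p65 2CS libraries thus gave nearly the same share (4.70% ± 0.00398), and the p65 WT libraries a lower and more scattered one (3.35% ± 0.318). Whether the transfected plasmids carry any PGK1 sequence is not given in the sources used here, and counts per gene do not show which part of the gene the reads came from. The part of the plasmids in the PGK1 counts was not tested.

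**Figure D1:**
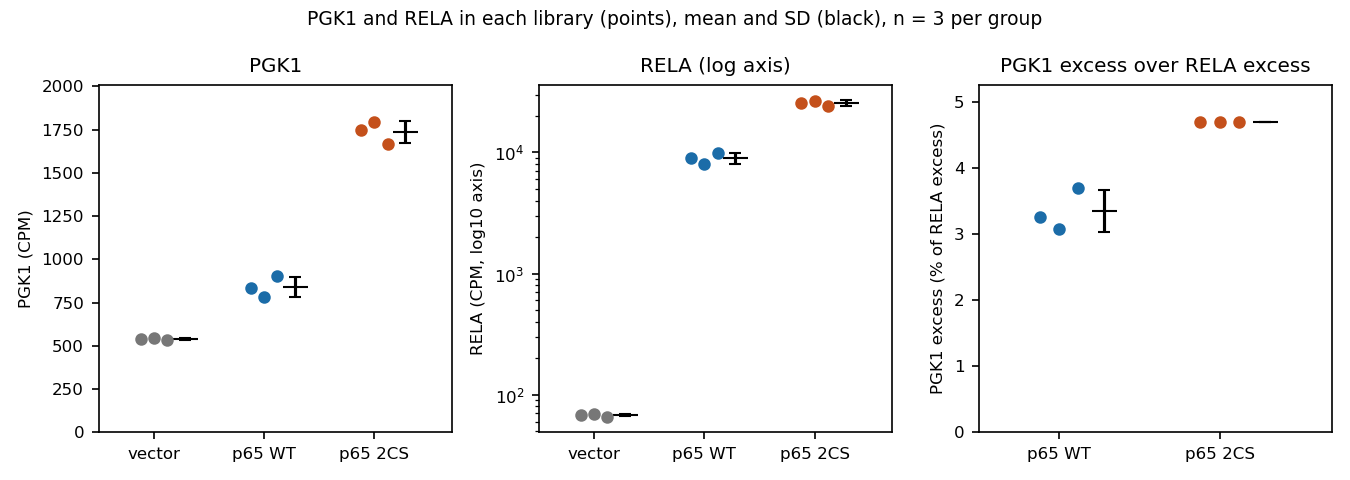
PGK1 (CPM, left), RELA (CPM on a log10 axis, middle) and the PGK1 excess over the vector mean as a percent of the RELA excess (right) in each library, with mean and SD in black and n = 3 per group. PGK1 and RELA both step up from vector to p65 WT to p65 2CS, and the 3 p65 2CS libraries share a PGK1 excess of about 4.70% of the RELA excess.

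None of the 5 tested genes beside PGK1 rose with either p65 form against vector. Of the 10 protein-coding neighbours examined, 5 on each side, 5 were tested, namely ATP7A, COX7B, MAGT1 and ATRX before the gene and TAF9B after it. Their log2 folds ran from -0.11 to -0.02 for p65 WT against vector, with 1 fall (ATRX), and from -0.19 to 0.10 for p65 2CS against vector, with falls of COX7B and MAGT1. Between the forms they ran from -0.17 to 0.21, with 2 lower and 1, ATRX, higher with p65 2CS than with p65 WT (0.21 ± 0.04, adjusted p = 2.51e-05). The copper transporter gene ATP7A starts within 1 kb of the longest PGK1 transcript and gave 26.4 ± 2.46, 24.6 ± 1.52 and 27.0 ± 0.0770 CPM with vector, p65 WT and p65 2CS, and passed no test. The exons of PGK1 overlapped those of other genes over 1.76% of their length. Related genes, taken by symbol, held few counts, with 10 in all 9 libraries for the pseudogene PGK1P2 and 0 for the testis paralogue PGK2. How reads that match more than 1 place were counted is not given, so reads shared with a copy could not be traced.

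**Figure D2:**
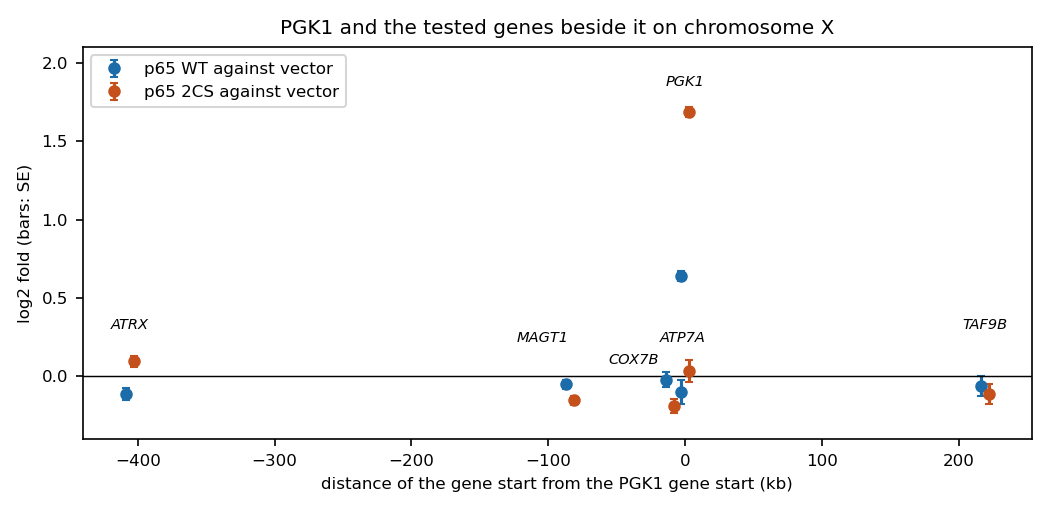
Log2 folds (bars are SE) of PGK1 and of the 5 tested genes beside it, for both p65 forms against vector. The horizontal axis is the distance in kb between the lowest annotated coordinate of each gene and that of PGK1, whatever the strand. For PGK1 this coordinate is 77910739, where its longest transcript starts. The promoter stretch of PGK1 shown above belongs instead to a protein-coding transcript that starts at 78104174. TAF9B therefore plots at 219 kb although it lies 0.452 kb past the end of PGK1. PGK1 stands at 0.64 and 1.69, while the neighbours lie between -0.19 and 0.10.

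The genes whose course over the 9 libraries lay closest to that of PGK1 were taken by the Euclidean distance of their log2 CPM, each set to its vector mean. The 35 genes of the list and RELA were left out of this ranking beforehand, so it does not show how near the listed enzymes lay. The 5 closest of the other genes were RND1 (distance 0.72), GADD45B (0.75), PLA2G4C (0.83), SLFN5 (0.90) and ZNF114 (1.00). GADD45B, a stress-induced gene known as an NF-kB target, rose from 157 ± 7.68 to 311 ± 5.96 CPM in p65 WT cells and 428 ± 14.9 in p65 2CS cells. RND1, a small GTPase that alters the actin skeleton, rose from 2.93 ± 0.196 to 4.81 ± 0.496 and 7.36 ± 0.511 CPM. These genes were selected for their likeness, so their folds are a description.

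The other 33 tested genes moved by much less than PGK1. Their log2 folds ran from -0.38 to 0.40 for p65 WT against vector, from -0.34 to 0.21 for p65 2CS against vector, and from -0.40 to 0.43 for p65 2CS against p65 WT. With p65 WT 8 rose and 9 fell of 33 (51.5%), where 28.8% of all genes tested changed, 16.4% upward and 12.5% downward. With p65 2CS 3 rose and 11 fell (42.4%, against 23.4% of all genes, 12.1% upward and 11.4% downward). Between the forms 3 were higher and 15 lower with p65 2CS than with p65 WT (54.5%, against 31.2% of all genes, 13.4% higher and 17.9% lower). The comparisons of the p65 forms with vector share the vector libraries. Counted by libraries that did not overlap, 11 members were higher and 10 lower with p65 WT (40.5% of all genes did not overlap), 5 higher and 17 lower with p65 2CS against vector (36.6%), and 4 higher and 15 lower between the forms (40.7%).

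The members are abundant, and abundant genes pass the test with smaller folds. Among the 4905 genes with at least 50 CPM, a threshold chosen after the data were seen, 21 members besides PGK1 were included. Of these 15 passed for p65 WT against vector (71.4%, against 41.6% of such genes), with 6 higher and 9 lower where 20.5% and 21.1% of such genes were. For p65 2CS against vector 12 passed (57.1%, against 41.7%), with 2 higher and 10 lower (16.9% and 24.8% of such genes). For p65 2CS against p65 WT 15 passed (71.4%, against 49%), with 3 higher and 12 lower (19.7% and 29.2%). The median log2 fold of the 33 members was -0.02, -0.07 and -0.08 in the 3 comparisons, beside -0.02, -0.00 and 0.00 over all genes tested.

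Some of the calls depended on the scaling. With libraries scaled by their totals alone, the 8 rises and 9 falls with p65 WT became 5 and 11, and the 3 higher and 15 lower between the forms became 4 and 9. Over all genes the same scaling took the share of rises among the calls from 56.8% to 41.3% with p65 WT and from 42.8% to 52.3% between the forms. Calls that held under each of the 15 alternatives tried were 10 of 17 for p65 WT against vector (BNIP3, HIF1A, HK1 and PFKM higher, HK2, KDM3A, NDRG1, SLC2A1, SLC2A3 and VEGFA lower). They were 9 of 14 for p65 2CS against vector (HK1 higher, HK2, LDHA, LDHB, NDRG1, PFKP, PGAM1, SLC2A1 and SLC2A3 lower). Between the forms they were 10 of 18 (EGLN1 and KDM3A higher with p65 2CS, BNIP3, ENO1, GAPDH, PFKM, PFKP, PGAM1, PKM and TPI1 lower).

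**Figure D3:**
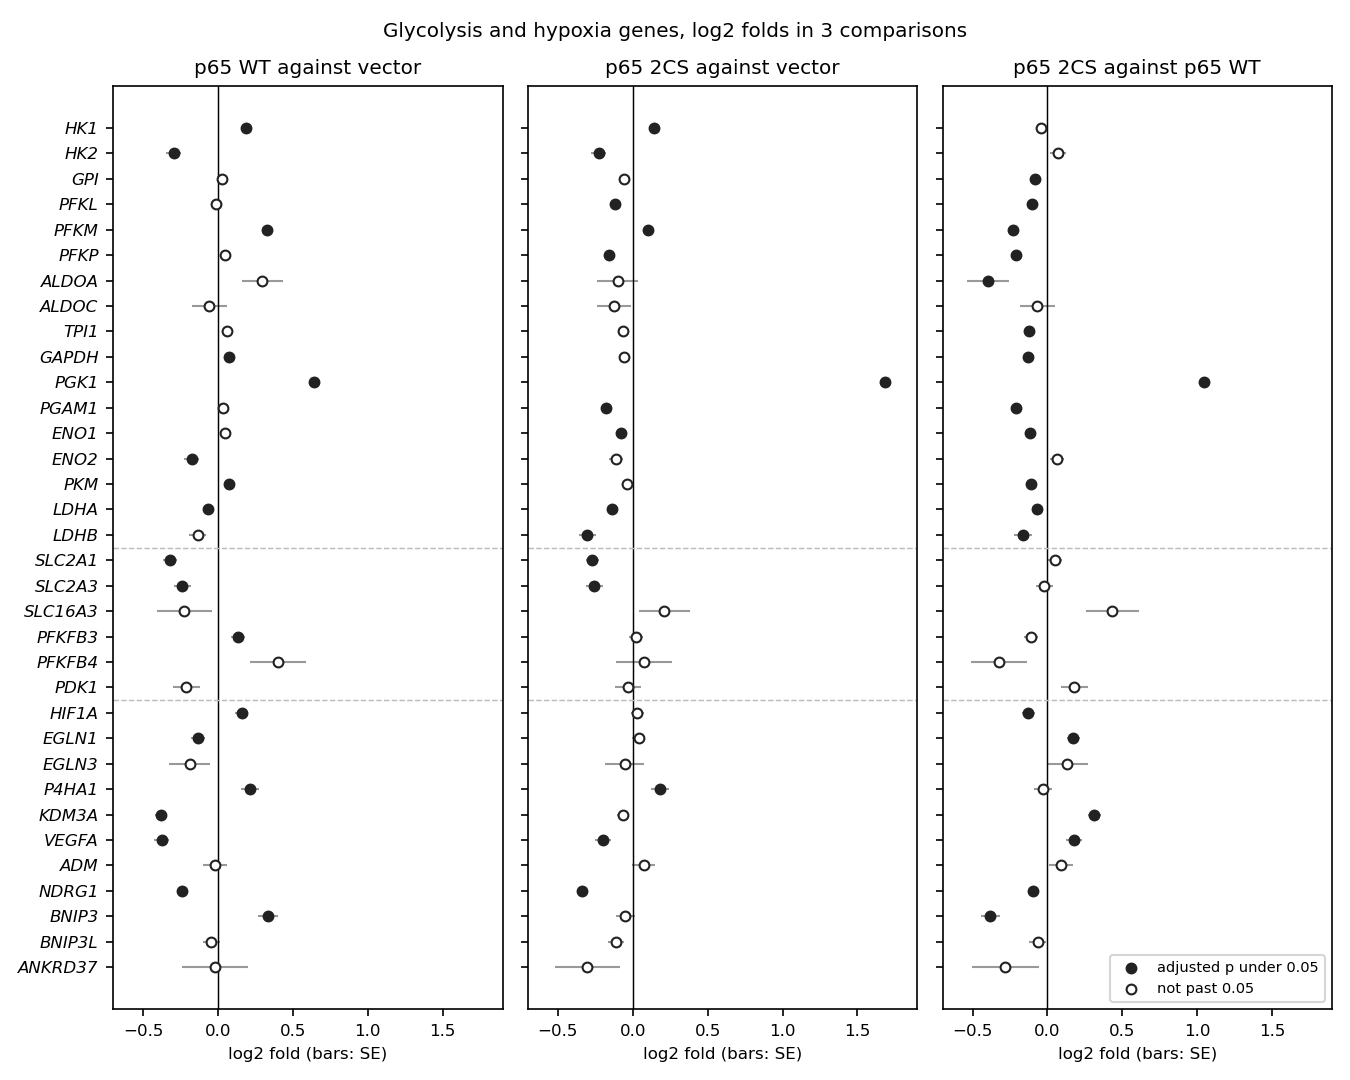
Log2 folds (bars are SE) of the 34 tested genes in the 3 comparisons, with filled points for adjusted p under 0.05 and dashed lines between enzymes, transport and control genes, and HIF with its targets. PGK1 lies at 0.64, 1.69 and 1.05, and the other genes stay between -0.40 and 0.43.

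The glycolytic enzymes other than PGK1 were mixed with p65 WT, and 12 of 16 were lower with p65 2CS than with p65 WT. Of these 16, 4 rose and 3 fell with p65 WT (median log2 fold 0.04), 2 rose and 7 fell with p65 2CS against vector (median -0.11), and 0 were higher and 12 lower between the forms (median -0.12). These are 43.8%, 56.2% and 75% of the 16, where 28.8%, 23.4% and 31.2% of all genes tested passed. Among genes with at least 50 CPM, a level that ALDOA, ALDOC and LDHB did not reach, 41.6%, 41.7% and 49% passed. ALDOA, ALDOC and LDHB did not pass with p65 WT. The 43.8% over all 16 enzymes is therefore not like for like with the 41.6%, and it understates the share among the abundant enzymes. Scaled by totals alone, the calls between the forms became 0 higher and 8 lower, and the p65 WT calls became 2 rises and 4 falls. The summed level of the 16 enzymes was 7421 ± 58.8 CPM with vector, 7661 ± 81.8 in p65 WT cells and 7055 ± 135 in p65 2CS cells, and PGK1 was the one enzyme of the 17 that passed the test upward between the forms.

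Hexokinase traps glucose in the cell as its phosphate, and its HK1 and HK2 forms moved in opposite directions. HK2, the form best known as a HIF target, was at 61.4, 65.9 and 61.5 CPM with vector, 48.5, 54.4 and 50.9 in p65 WT cells and 56.0, 52.3 and 53.2 in p65 2CS cells. All 6 libraries with p65 stood below the 3 vector libraries, and the p65 groups overlapped. The log2 fold of HK2 was -0.30 ± 0.05 with p65 WT (adjusted p = 1.67e-05) and -0.23 ± 0.05 with p65 2CS (adjusted p = 0.000763).

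HK1, the widely expressed form, was at 138 ± 4.50 CPM with vector, 157 ± 4.0 in p65 WT cells and 152 ± 3.27 in p65 2CS cells. Its log2 folds against vector were 0.19 ± 0.03 (adjusted p = 4.16e-05) and 0.14 ± 0.03 (adjusted p = 0.00198). The share of HK2 in hexokinase RNA, per exon length, was 32.1% ± 0.420 with vector, 25.3% ± 1.18 in p65 WT cells and 26.9% ± 1.05 in p65 2CS cells. The share was thus lower with both p65 forms, with vector libraries at 31.6% to 32.4% and the others at 24.0% to 28.1%.

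Phosphofructokinase catalyses the committed step of glycolysis from subunits encoded by PFKL, PFKM and PFKP. PFKM, the muscle-type subunit, was at 108, 109 and 109 CPM with vector, 135, 134 and 140 in p65 WT cells and 120, 114 and 115 in p65 2CS cells. The 3 groups did not overlap, with p65 WT highest and p65 2CS between it and vector. PFKM rose by 0.33 ± 0.04 on the log2 scale with p65 WT (adjusted p = 5.52e-10) and was lower with p65 2CS than with p65 WT (-0.23 ± 0.04, adjusted p = 1.84e-06). Its smaller rise with p65 2CS against vector (0.10 ± 0.04, adjusted p = 0.0319) was lost without any of the vector libraries 1, 2 or 3 or p65 2CS library 7 (adjusted p 0.0730 to 0.156), with totals alone as the scale (0.0691) and without the filter on low counts (0.0551).

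PFKP, the platelet-type subunit, was at 207, 200 and 203 CPM with vector, 212, 208 and 209 in p65 WT cells and 186, 171 and 189 in p65 2CS cells. The p65 2CS libraries stood below all the others, with a log2 fold of -0.16 ± 0.03 against vector (adjusted p = 0.000281) and -0.21 ± 0.03 against p65 WT (adjusted p = 3.81e-06). PFKL, the liver-type subunit, showed 239 ± 2.19, 237 ± 5.99 and 221 ± 10.2 CPM. Its falls with p65 2CS were lost without p65 2CS library 8 (adjusted p 0.0902 against vector and 0.146 against p65 WT), and the latter also without p65 WT library 6 (0.0552) and with totals alone (0.0699). Per exon length PFKM made up 17.7% ± 0.312 of phosphofructokinase RNA with vector, 21.0% ± 0.330 in p65 WT cells and 20.4% ± 0.744 in p65 2CS cells.

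The middle of the pathway held the most abundant enzymes, and most of these were somewhat lower with p65 2CS than with p65 WT. GAPDH, which makes the substrate of phosphoglycerate kinase, was at 1393 ± 10.3, 1465 ± 13.5 and 1341 ± 39.4 CPM, a log2 fold of -0.13 ± 0.02 between the forms (adjusted p = 2.81e-05). PGAM1, which acts on the product of phosphoglycerate kinase, was at 397, 396 and 410 CPM with vector, 404, 419 and 408 in p65 WT cells and 361, 343 and 360 in p65 2CS cells. The p65 2CS libraries of PGAM1 lay below the other 6, with a log2 fold of -0.18 ± 0.03 against vector (adjusted p = 3.45e-06) and -0.21 ± 0.03 against p65 WT (adjusted p = 5.76e-08).

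GAPDH and PGAM1, the steps on either side of PGK1, were thus lower with p65 2CS than with p65 WT while PGK1 was higher. TPI1, the triose phosphate isomerase, was lower with p65 2CS than with p65 WT by a log2 fold of -0.12 ± 0.02 (adjusted p = 0.000112), as were the enolase ENO1 (-0.12 ± 0.02, adjusted p = 3.52e-05) and the pyruvate kinase PKM (-0.11 ± 0.02, adjusted p = 0.000282). The isomerase GPI passed that test at -0.08 ± 0.03 (adjusted p = 0.0187), and the call was lost without p65 WT library 4 or p65 2CS library 8 (adjusted p 0.128 and 0.125) and with totals alone (0.122). The small rises of GAPDH and PKM with p65 WT (both 0.07 ± 0.02, adjusted p = 0.0164) were lost with totals alone as the scale (adjusted p 0.353 and 0.330). The GAPDH rise was also lost without vector library 1 or 3 or p65 WT library 5 (adjusted p 0.0549 to 0.0657), and the PKM rise without vector library 2 or p65 WT library 6 (0.0725 and 0.0731).

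The aldolase genes were low in this count table. ALDOA was at 7.24 ± 0.789, 8.90 ± 1.77 and 6.76 ± 0.333 CPM and ALDOC at 10.1 ± 0.760, 9.71 ± 0.255 and 9.33 ± 1.01 CPM. ALDOA passed the test between the forms (-0.40 ± 0.14, adjusted p = 0.0247), but without p65 WT library 6 its adjusted p was 0.278, and without p65 2CS library 8 or 9 it was 0.0543 or 0.0862. Its exons overlap another annotated gene on the same strand, AC093512.2, over 42.3% of their length, and that gene held 817 counts beside the 1257 of ALDOA over 9 libraries, so the ALDOA count is uncertain.

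The lactate dehydrogenase genes fell with p65 2CS by small amounts. LDHA, which makes lactate from pyruvate, was at 486 ± 10.2 CPM with vector, 464 ± 3.26 in p65 WT cells and 442 ± 5.40 in p65 2CS cells. Its log2 fold for p65 2CS against vector was -0.14 ± 0.03 (adjusted p = 6.22e-05), and that of LDHB, the heart-type subunit, was -0.30 ± 0.06 (adjusted p = 0.000139, from 44.9 ± 3.27 to 36.5 ± 1.23 CPM). The exons of LDHB overlap another annotated gene on the same strand, AC010197.2, over 33.4% of their length. That gene held 5 counts beside the 6749 of LDHB. How reads in the overlap were counted is not given, so the level of LDHB is uncertain. The fall of LDHA with p65 WT (adjusted p = 0.0406) was lost without vector library 1 or 3 or p65 WT library 4 or 5 (adjusted p 0.0699 to 0.192). It was also lost under 5 of the 6 other alternatives, namely RLE scaling (0.0982), no filter (0.127), DESeq2 (0.0647), the compared groups alone (0.104) and RELA left out (0.135), so 9 of the 15 alternatives ended it. That between the forms (adjusted p = 0.0346) was lost without any p65 WT library or p65 2CS library 8 or 9 (adjusted p 0.0558 to 0.138), and with totals alone (0.222), no filter (0.0509) or the compared groups alone (0.0580). ENO2, the neuronal enolase, fell with p65 WT from 81.1 ± 2.16 to 71.7 ± 3.96 CPM (log2 fold -0.18 ± 0.05, adjusted p = 0.00374), and had an adjusted p of 0.0533 without p65 WT library 4.

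Divided by exon length, the order of the enzymes with vector was GAPDH (467 ± 3.45 CPM per kb), ENO1 (403 ± 7.75), TPI1 (267 ± 5.48), PGAM1 (156 ± 2.96), PKM (116 ± 0.556), PGK1 (97.8 ± 1.29) and LDHA (78.3 ± 1.65), and these neighbours did not overlap between libraries. With p65 WT, PGK1 (152 ± 10.9 CPM per kb) overlapped PGAM1 (160 ± 3.02). With p65 2CS, PGK1 reached 315 ± 11.7 CPM per kb and stood at rank 3, between ENO1 (382 ± 5.59) and TPI1 (256 ± 1.46). Its share of the summed per-length level of the 17 enzymes was 5.50% ± 0.0641, 8.06% ± 0.498 and 16.5% ± 0.697 in the 3 groups. The other enzymes kept their places among themselves except for ENO2, PFKM and LDHB, which lie close together.

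**Figure D4:**
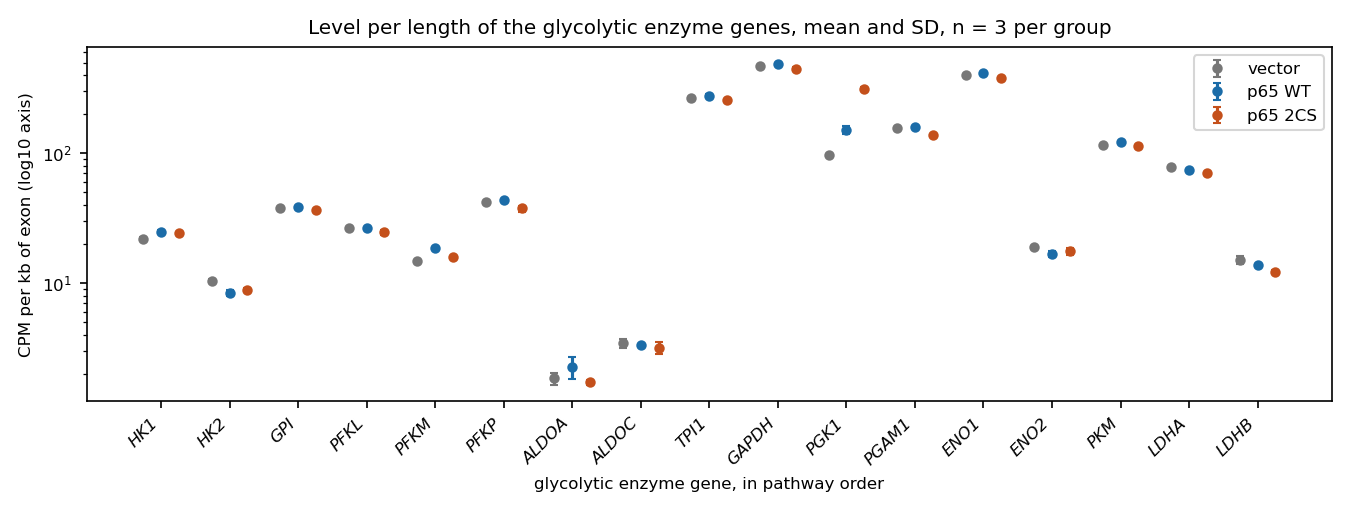
Level of the 17 glycolytic enzyme genes in pathway order, as CPM per kb of exon on a log10 axis, mean and SD over 3 libraries per group. PGK1 climbs from 97.8 to 315 CPM per kb, while the means of GAPDH and PGAM1, the steps on either side, are lower with p65 2CS than with p65 WT.

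Of the 6 genes of transport and control, the glucose transporters fell with both p65 forms. With p65 WT 1 of the 6 rose and 2 fell, with p65 2CS against vector 0 rose and 2 fell, and 0 passed the test between the forms, where edgeR gave SLC16A3 the lowest adjusted p, 0.0598. The shares of the 6 called were 50%, 33.3% and 0%, beside 28.8%, 23.4% and 31.2% of all genes tested. SLC2A1, the main glucose transporter of most cultured cells, was at 88.3, 88.9 and 83.5 CPM with vector, 67.8, 72.7 and 68.2 in p65 WT cells and 73.3, 70.0 and 73.1 in p65 2CS cells. All 6 p65 libraries lay below the vector libraries, and the p65 groups overlapped. The log2 fold of SLC2A1 was -0.32 ± 0.04 with p65 WT (adjusted p = 1.56e-07) and -0.27 ± 0.04 with p65 2CS (adjusted p = 5.87e-06).

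SLC2A3, a high-affinity glucose transporter, fell from 57.0 ± 2.15 CPM with vector to 48.4 ± 2.41 with p65 WT (adjusted p = 0.00142) and 48.0 ± 4.19 with p65 2CS (adjusted p = 0.000682). PFKFB3 makes the main allosteric activator of phosphofructokinase, and its rise with p65 WT (from 73.1 ± 3.39 to 80.1 ± 3.50 CPM, adjusted p = 0.0269) was lost without vector library 1 or p65 WT library 5 or 6 (adjusted p 0.0788 to 0.188) and with totals alone (0.135). The lactate exporter SLC16A3 (3.43 to 4.64 CPM by group), PFKFB4 (3.64 to 4.82) and PDK1 (19.7 to 22.9), a kinase that shuts off pyruvate dehydrogenase, passed no test.

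HIF1A and its targets did not move as 1 group. Of 11 tested, 3 rose and 4 fell with p65 WT, 1 rose and 2 fell with p65 2CS against vector, and 3 were higher and 3 lower with p65 2CS than with p65 WT. These are 63.6%, 27.3% and 54.5% of the 11, where 28.8%, 23.4% and 31.2% of all genes tested passed. The share for p65 2CS against vector was thus near that of all genes. The median log2 folds of the 11 were -0.05, -0.05 and -0.03. HIF1A, the oxygen-regulated subunit, was at 82.1, 80.2 and 81.8 CPM with vector, 92.4, 91.6 and 88.4 in p65 WT cells and 77.0, 86.3 and 85.1 in p65 2CS cells. The p65 WT libraries stood above all the others, and the p65 2CS libraries lay on both sides of vector.

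The log2 fold of HIF1A was 0.16 ± 0.04 with p65 WT (adjusted p = 0.00437) and 0.03 ± 0.04 with p65 2CS (adjusted p = 0.689). The difference between the forms (-0.13 ± 0.04, adjusted p = 0.0190) was lost without p65 WT library 4 or 5 or p65 2CS library 7 (adjusted p 0.0555 to 0.188) and with totals alone (0.0692). HIF activity is set mainly by the stability of the protein, which these libraries do not measure. EGLN1, the main hydroxylase that marks HIF for destruction, was at 83.9 ± 2.42, 76.4 ± 2.92 and 86.0 ± 4.39 CPM, higher with p65 2CS than with p65 WT (0.17 ± 0.04, adjusted p = 0.00218). Its fall with p65 WT (-0.13 ± 0.04, adjusted p = 0.0201) was lost without vector library 1 or p65 WT library 5 or 6 (adjusted p 0.0531 to 0.105).

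KDM3A and VEGFA were lowest with p65 WT. KDM3A, a histone demethylase induced by HIF, was at 113, 111 and 112 CPM with vector, 89.5, 88.9 and 80.0 in p65 WT cells and 111, 106 and 105 in p65 2CS cells. The p65 WT libraries lay below the other 6, with log2 folds of -0.38 ± 0.04 against vector (adjusted p = 5.45e-10) and 0.31 ± 0.04 for p65 2CS against p65 WT (adjusted p = 6.02e-08). For p65 2CS against vector KDM3A gave -0.07 ± 0.04 and did not pass (adjusted p = 0.247).

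VEGFA, the secreted factor that drives vessel growth, was at 79.7, 69.1 and 69.0 CPM with vector, 53.0, 56.3 and 58.2 in p65 WT cells and 64.4, 62.9 and 62.5 in p65 2CS cells. The 3 groups did not overlap, with p65 WT lowest and p65 2CS between. Its log2 fold with p65 WT was -0.38 ± 0.05 (adjusted p = 2.09e-07). The fall with p65 2CS (-0.20 ± 0.05, adjusted p = 0.00315) had an adjusted p of 0.0894 without vector library 1, the highest, and the difference between the forms (0.18 ± 0.05, adjusted p = 0.00838) one of 0.0693 without p65 WT library 4.

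NDRG1 fell with both forms, and BNIP3 rose with p65 WT. NDRG1, a stress-responsive gene often used as a readout of low oxygen, was at 329, 336 and 328 CPM with vector, 280, 286 and 275 in p65 WT cells and 269, 251 and 266 in p65 2CS cells. The groups did not overlap, and the log2 folds were -0.24 ± 0.03 (adjusted p = 1.06e-08) and -0.34 ± 0.03 (adjusted p = 4.13e-12) against vector. The further fall between the forms (-0.10 ± 0.03, adjusted p = 0.00856) was lost without p65 WT library 5 or p65 2CS library 8 (adjusted p 0.0536 and 0.120) and with totals alone (0.0615).

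BNIP3, a receptor for the removal of mitochondria by autophagy, was at 32.9, 30.6 and 33.3 CPM with vector, 39.4, 43.6 and 38.8 in p65 WT cells and 33.8, 29.9 and 30.1 in p65 2CS cells. The p65 WT libraries stood above the other 6, and vector and p65 2CS overlapped. The log2 fold was 0.33 ± 0.07 with p65 WT (adjusted p = 8.86e-05) and -0.38 ± 0.07 for p65 2CS against p65 WT (adjusted p = 1.04e-05). Its relative BNIP3L, with 46.1 ± 0.812, 44.7 ± 1.52 and 42.7 ± 0.585 CPM, passed no test.

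P4HA1, a collagen prolyl hydroxylase, rose from 36.5 ± 1.69 CPM to 42.3 ± 3.38 with p65 WT (adjusted p = 0.00738) and 41.4 ± 0.792 with p65 2CS (adjusted p = 0.0247). The first call was lost without vector library 2 (adjusted p = 0.0550) or p65 WT library 4 (0.113), and the second without vector library 2 or 3 or p65 2CS library 7 or 8 (adjusted p 0.0701 to 0.134). The vasodilator gene ADM (18.9 to 20.2 CPM by group), EGLN3 (6.72 to 7.66) and ANKRD37 (2.51 to 3.15) passed no test in the 3 comparisons. CA9, a carbonic anhydrase that is nearly silent without HIF activity, had 0 counts with vector, 3 with p65 WT, all in library 6, and 1 with p65 2CS. A count of 0 over the vector libraries allows up to 3 counts, or 0.0524 CPM, so no difference in CA9 was detectable at this depth.

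**Figure D5:**
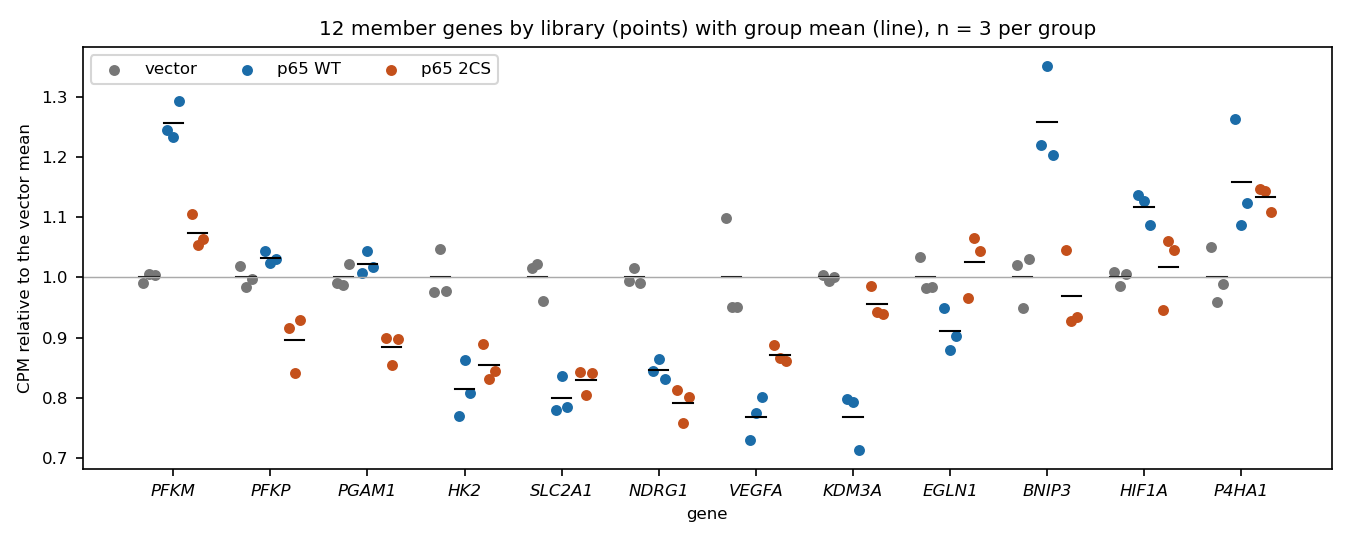
CPM of 12 member genes in each library relative to the gene's vector mean, with the group mean as a line and n = 3 per group. HK2, SLC2A1 and NDRG1 are lower with both p65 forms, KDM3A is low with p65 WT, PFKM and BNIP3 are high with p65 WT, and PFKP and PGAM1 are low with p65 2CS.

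Other genes of the same pathways were counted from lists that hold none of the 35, to be read against the 28.8%, 23.4% and 31.2% of all genes that passed in the 3 comparisons. Of 24 tested genes of glucose, lactate and pyruvate transport and entry, 6 rose and 5 fell with p65 WT, 1 rose and 5 fell with p65 2CS against vector, and 1 was higher and 5 lower with p65 2CS than with p65 WT (45.8%, 25% and 25% of the 24). The rise with both forms was that of SLC2A6, a glucose transporter family member, at 35.1 ± 2.27 CPM with vector, 249 ± 19.1 in p65 WT cells and 68.9 ± 1.36 in p65 2CS cells. Its log2 folds were 2.83 ± 0.05 (adjusted p = 8.09e-37), 0.98 ± 0.05 (adjusted p = 5.15e-18) and, between the forms, -1.85 ± 0.04 (adjusted p = 1.88e-31). SLC2A6 thus rose most with p65 WT, and PGK1 most with p65 2CS.

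Of 8 tested genes on a list of other glycolytic enzymes, edgeR called 0 with either form against vector and 1 between the forms. That 1 was PGAM5 (log2 fold 0.14 ± 0.04, adjusted p = 0.00221), which despite its symbol is known as a mitochondrial protein phosphatase and not as a glycolytic enzyme. The 9 genes of the pentose phosphate pathway, which branches off glycolysis, gave 2 rises and 1 fall with p65 WT, 0 and 0 with p65 2CS against vector, and 1 higher and 4 lower between the forms (33.3%, 0% and 55.6%). TALDO1, its transaldolase, was at 137 ± 2.66, 167 ± 2.61 and 137 ± 5.13 CPM. The 21 genes of the tricarboxylic acid cycle gave 2 rises and 1 fall, 2 and 0, and 2 and 4 in the same order of comparisons (14.3%, 9.52% and 28.6%), each below the share over all genes.

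Of 15 tested genes of oxygen sensing, 2 rose and 5 fell with p65 WT, 4 rose and 6 fell with p65 2CS against vector, and 2 were higher and 3 lower between the forms (46.7%, 66.7% and 33.3%). CITED2, which competes with HIF for its coactivator, fell from 153 ± 2.84 CPM to 114 ± 4.73 with p65 WT (adjusted p = 1.75e-12) and 112 ± 4.51 with p65 2CS (adjusted p = 1.11e-12). EGLN2, a lower gene of the EGLN family, fell from 11.2 ± 0.795 CPM to 8.11 ± 1.76 with p65 WT (log2 fold -0.46 ± 0.13, adjusted p = 0.0046). With p65 2CS EGLN2 was at 8.41 ± 0.432 CPM (-0.41 ± 0.12, adjusted p = 0.0131). EPAS1, the HIF2 alpha subunit, was at 43.4 ± 2.02, 44.3 ± 2.90 and 35.6 ± 0.227 CPM and fell with p65 2CS (log2 fold -0.28 ± 0.06, adjusted p = 0.000308). Among the rises, ARNT2 went from 43.3 ± 1.30 CPM with vector to 49.2 ± 1.15 with p65 WT (adjusted p = 0.00854). With p65 2CS it was at 52.9 ± 2.16 CPM (log2 fold 0.29 ± 0.05, adjusted p = 6.48e-05). Of 38 tested other HIF targets, 4 rose and 7 fell, 3 rose and 5 fell, and 5 were higher and 5 lower in the 3 comparisons. These shares (28.9%, 21.1% and 26.3%) were near or below those over all genes. DDIT4, an inhibitor of mTOR signalling, fell with p65 WT from 26.1 ± 1.78 to 16.7 ± 1.79 CPM (log2 fold -0.65 ± 0.08, adjusted p = 2.48e-08). It also fell with p65 2CS, to 19.5 ± 0.621 CPM (-0.42 ± 0.08, adjusted p = 6.22e-05). KDM4C, on the same list, rose with p65 2CS from 26.9 ± 1.38 to 34.9 ± 1.98 CPM (log2 fold 0.37 ± 0.07, adjusted p = 5.22e-05).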

How the data were processed

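RNA was selected by poly-A, broken up and reverse transcribed with random primers, per the labels' protocols. The submitters' processing notes name HISAT2 2.0.5 for alignment. The genome build is not given in the sources used here, nor is the way reads were counted or its strand setting. What was deposited is a table of raw counts, not normalized by the authors. Its 58735 gene identifiers, starts, ends and strands equal those of GENCODE 29 (GRCh38), which supplies the coordinates. Since strandedness is unknown, a read in an overlap of 2 genes could belong to either.

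Tests used edgeR 4.0.16 on limma 3.58.1 and R 4.3.3. The filter filterByExpr left 18195 genes (40540 were not tested), TMM set the scale, and glmQLFTest compared groups, taken from the sample titles, in a fit over the 9 libraries. P-values were adjusted by Benjamini-Hochberg across the genes tested (threshold 0.05). Levels of different genes were compared as CPM per kb of exon. The scripts were tested on simulated data. Alternatives were RLE scaling, scaling by totals, no filter, DESeq2 1.42.0, a fit of the compared groups alone, RELA left out, and each library left out.

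The members and lists were chosen with earlier results of these data known, including the rise of PGK1. By rule, values per library were due for PGK1 and for called members whose log2 fold reached 0.5 in size, and no member besides PGK1 did so. The other members shown by library, and the threshold of 50 CPM, were chosen after values were seen. Floors reflect counting error alone because no molecular identifiers were used. Promoter sequences are from RefSeq, with chromosome 8 left out.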

Additional observations from a re-analysis of the deposited data

How the results depend on the processing

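PGK1 stayed higher and past the threshold in every comparison under all 15 alternatives. Its log2 folds with 1 library left out ran from 0.58 to 0.69 for p65 WT against vector, from 1.66 to 1.71 for p65 2CS against vector and from 1.00 to 1.10 between the forms. The number of other members called ran, with 1 library left out, from 14 to 17, from 11 to 15 and from 12 to 18, beside 17, 14 and 18 with all libraries. Scaled by totals alone these were 5 rises and 11 falls, 2 rises and 14 falls, and 4 higher and 9 lower, which lowers the share of rises with p65 WT from 47.1% to 31.2% and raises that between the forms from 16.7% to 30.8%, while over all genes called it goes from 56.8% to 41.3% and from 42.8% to 52.3%. Over single genes and comparisons, calls were lost 52 times and gained 13 times on leaving out a library and lost 18 times and gained 14 times under the other alternatives, with 0 calls changing sign. A gene past the threshold in neither setting counted as unchanged whatever its sign. No paired analysis was possible because the groups share no replicate number. Depth limits CA9.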
